A study of Mus musculus with 91 samples.

Results

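The genes described here are 44 genes of DNA replication and S phase, chosen by name from the 23956 gene symbols of the expression table. They cover the licensing of replication origins, the activation of the helicase, the polymerases and their accessory factors, the supply of deoxynucleotides, and the copying of chromatin and DNA methylation. All 44 symbols were present. Their levels were followed in 91 single bone marrow progenitors of C57BL/6 mice with the genotype Gfi1-R412X/- Irf8+/-, in which the R412X allele of the repressor gene Gfi1 lies over a minus allele and a single functional copy of the transcription factor gene Irf8 is left. All cells passed a gate for lineage-negative, CD117+, Sca-1-, CD34+ and CD16/32 high cells, which marks progenitors of granulocytes and monocytes (GMP). The labels divide them into 46 GMP cells and 45 cells called CD11b+ GMP-P, CD11b being an integrin subunit of maturing myeloid cells. Both populations share the genotype, and no wild-type cells were analysed here. No animal is named in the labels, so each population counted as 1 sample, and no p-value was made from cells. An identifier in the cell names of the table also differs between the populations, so that population and whatever it stands for cannot be told apart.

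DNA replication begins in G1, when the origin recognition complex, Cdc6 and Cdt1 load the Mcm2 to Mcm7 helicase onto DNA, a step called licensing. At the start of S phase, Cdc45 and the GINS complex join the loaded helicase and activate it, and polymerase alpha with primase, polymerase delta and polymerase epsilon copy the opened strands. The clamp Pcna and its loader, replication factor C, hold the polymerases on DNA, while ribonucleotide reductase and thymidylate synthase make the building blocks. Many of these genes are known targets of E2F transcription factors. In bone marrow, neutrophil precursors divide several times before they leave the cell cycle and mature.

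Levels are log2(TPM + 1), where TPM is the transcript share scaled to the same total in every cell, a unit corrected for transcript length, so that levels of different genes can be set side by side. Each difference is the mean over CD11b+ GMP-P cells minus the mean over GMP cells, and a gene was called lower or higher when the difference reached 1. SDs are over cells. GMP cells had 5294 ± 801 genes above 0 and CD11b+ GMP-P cells 4112 ± 953 (mean ± SD), and the median difference of the 5133 commonly detected genes, those above 0 in 50% or more of GMP or of CD11b+ GMP-P cells, was -1.05. A member's difference is therefore also given relative to that value. The part of the number of detected genes in each result was not tested, but results were recomputed in the 26 GMP and 21 CD11b+ GMP-P cells with 3947 to 5645 genes above 0, called the shared range, where the commonly detected genes had a median difference of -0.44. Within that range the cells still had a median of 5042.5 and 4694 genes.

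The sort was checked against its defining genes. Kit, which encodes CD117, had means of 3.65 ± 2.84 (GMP) and 0.90 ± 1.55 (CD11b+ GMP-P), and reached 10 TPM in 26 of 46 and 3 of 45 cells. Cd34 did so in 41 and 14 cells, and Itgam (CD11b) in 3 and 24. Ly6a, which encodes Sca-1, averaged 5.51 and 5.74 although the gate was negative for that protein. The neutrophil elastase gene Elane was under 10 on the log2(TPM + 1) scale in 3 GMP and 16 CD11b+ GMP-P cells, and the replication genes are also given without these. That limit was chosen with earlier results of these data known, and 2 GMP and 5 CD11b+ GMP-P cells lay within 2 of it. Of 9 neutrophil lineage genes, 4 were lower by 1 or more in CD11b+ GMP-P (Mpo, Elane, Prtn3 and Ctsg). The other 5 were higher by that much (Cebpe, Ltf, Camp, Ngp and S100a8). Among the 16 CD11b+ GMP-P cells low in Elane, Camp, Ngp and Ltf averaged 14.9, 15.4 and 11.3. In the 29 others they averaged 9.30, 8.30 and 3.14. Mpo, Prtn3 and Ctsg went the other way, at 3.95, 5.11 and 1.67 against 12.3, 11.3 and 8.63. None of the 16 cells reached 10 TPM for Kit or Cd34, against 3 and 14 of the 29 others, although the gate was positive for both proteins. Most CD11b+ GMP-P cells low in Elane also fell outside the shared range, with a median of 3172.5 genes above 0. The shared range thus also changes the mix of CD11b+ GMP-P cells, and it overlaps with the Elane limit as a check. Markers of other lineages were near 0 in most cells. None of the 5 lymphoid genes in the table was above 0 in any cell. The summed erythroid and megakaryocyte markers reached at most 702 TPM in GMP and 562 TPM in CD11b+ GMP-P (median 0 in both), with Hbb-b1, Klf1, Car1 and Pf4 at 0 in every cell. Basophil and mast cell markers summed to a median of 0.76 TPM in GMP, but passed 100 TPM in 12 of 46 cells and reached 21562 TPM in the highest, against at most 575 TPM in CD11b+ GMP-P. Macrophage and dendritic markers summed to at most 381 TPM in GMP and 7.85 TPM in CD11b+ GMP-P, with C1qa, C1qb and Cd209a at 0 in every cell. Their part in the results was not tested.

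Replication genes did not move as a block between the populations. Of the 44 genes, all above 0 in 10% or more of GMP or of CD11b+ GMP-P cells, 18 (40.9%) were lower in CD11b+ GMP-P by 1 or more, none was higher by that much, and 26 differed by less. Among all 10030 genes detected that often, 29.9% were lower by 1 or more and 2.45% were higher. Of the 40 replication genes among the commonly detected genes, the same 18 (45%) were lower, against 51.8% of all such genes, of which 3.7% were higher. The median difference of the 44 genes was -0.87, or +0.18 relative to the commonly detected genes, and single genes ranged from -2.80 (Mcm6) to +0.84 (Rrm2). In the shared range the median was +0.21, with 5 genes lower by 1 or more and 9 higher, against 16.7% and 5.88% of all genes. With the log2 ratio of mean TPM in place of the difference of log means, 11 were lower and 1 was higher, against 35.1% and 12.6% of all genes. The 5 lower genes of the shared range were Mcm2, Mcm4, Mcm6, Gins1 and Pold2, and the 9 higher ones were Mcm7, Gmnn, Prim1, Pcna, Rfc3, Rrm2, Tyms, Lig1 and Uhrf1. Over the main setting and 8 alternatives, Mcm2, Mcm4, Mcm6, Gins1, Gins2, Pold2 and Chaf1b (7 genes) stayed below the median of the commonly detected genes, and 19 genes stayed above it, among them Pcna, Rrm2, Tyms, Lig1, Gmnn, Uhrf1 and Dnmt1.

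**Figure D1:**
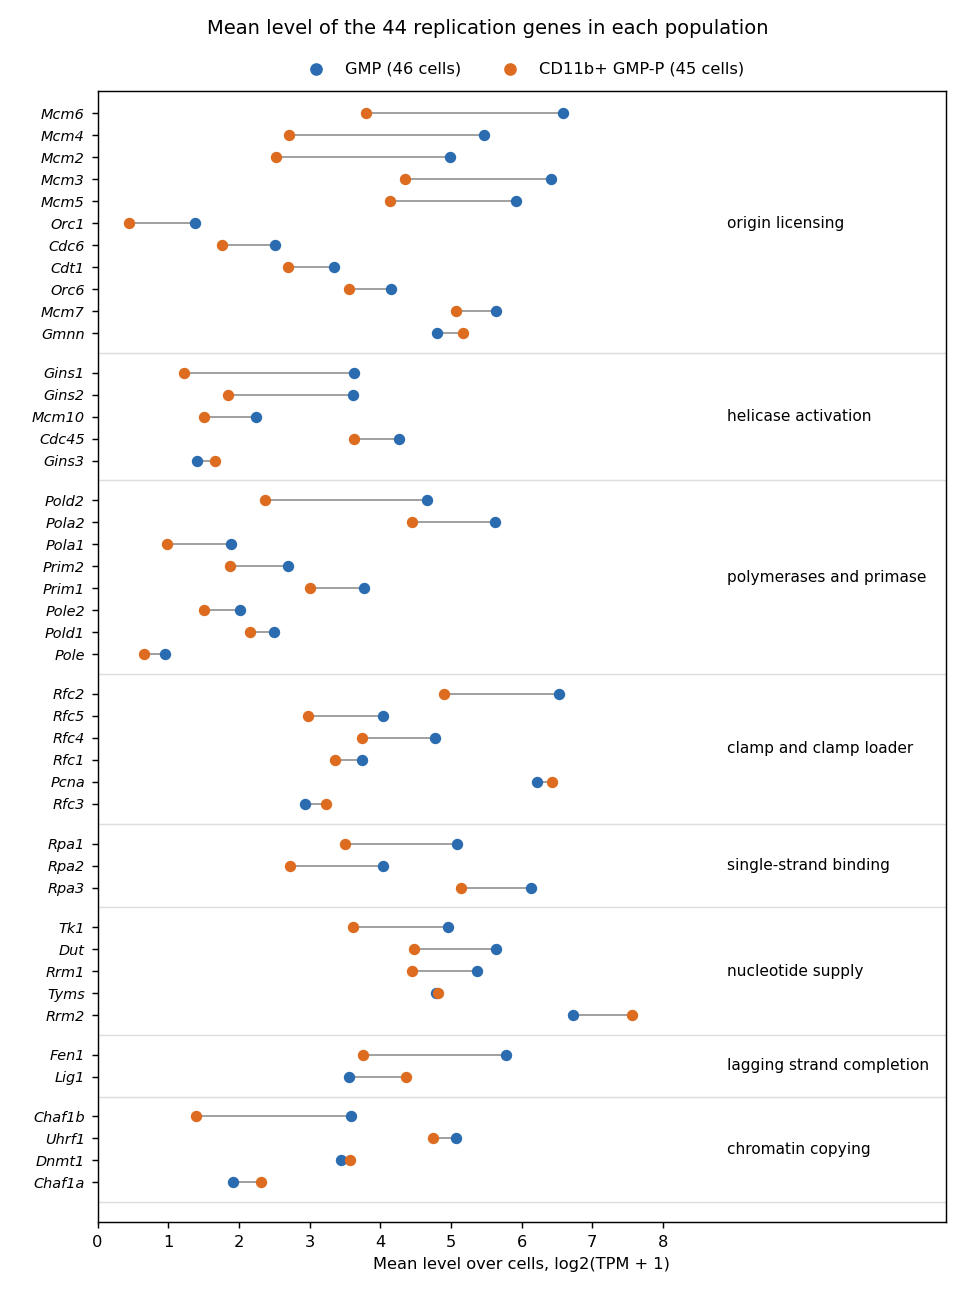
Mean level of each of the 44 replication genes, as log2(TPM + 1) on the x axis, averaged over 46 cells for GMP (blue) and over 45 for CD11b+ GMP-P (orange), grouped by role and ordered within a role by the difference. The longest lines belong to Mcm6, Mcm4 and Mcm2 in the licensing group and to Gins1, Pold2 and Chaf1b further down, whereas Rrm2, Lig1 and Pcna have their orange point on the right.

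Among the 11 licensing genes, 5 of the 6 that encode the helicase ring had the lowest differences. Mcm2 to Mcm7 encode the 6 subunits of the ring that unwinds DNA ahead of the fork, and 5 of these 6 genes were lower by 1 or more, with a median difference of -2.26. Mcm6 ranged from 0 to 9.70 in GMP with a median of 7.27, and from 0 to 9.69 in CD11b+ GMP-P with a median of 4.09. Its mean went from 6.59 ± 2.51 to 3.79 ± 3.43, a difference of -2.80. The ranges of the populations overlapped fully, and fewer CD11b+ GMP-P cells held the transcript: Mcm6 reached 10 TPM in 40 of 46 cells in GMP (87%, 73.7 to 95.1) and 24 of 45 in CD11b+ GMP-P (53.3%, 37.9 to 68.3). These and all further ranges after a percentage are exact 95% Clopper-Pearson intervals and cover counting error only.

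Mcm4 had a median of 6.23 in GMP (0 to 9.03) and 0.98 in CD11b+ GMP-P (0 to 9.23), and its means of 5.47 ± 2.92 and 2.70 ± 3.09 gave a difference of -2.76. Mcm2 had medians of 5.43 (0 to 9.93) and 0.40 (0 to 7.86), and a difference of -2.46. In CD11b+ GMP-P, the typical cell thus held little or no Mcm2 and Mcm4 transcript, while its highest cell was above the GMP maximum for Mcm4 and below it for Mcm2. Mcm2, Mcm4 and Mcm6 were also lower by 1 or more under all 8 alternatives, and by -1.98, -2.82 and -2.26 in the shared range. Mcm3 and Mcm5 differed by -2.07 and -1.78, but by -0.71 and -0.38 in the shared range. Mcm7, the remaining subunit, averaged 5.64 ± 3.46 and 5.08 ± 3.58, a difference of -0.56, and its medians of 6.50 and 6.35 lay side by side. Mcm7 was higher in CD11b+ GMP-P, by 1.06 in the shared range, so the subunits of this ring did not share a direction there.

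The genes that load and guard the ring each differed by less than 1, as Mcm7 did. Cdc6 and Cdt1, which bring the ring to the origin, differed by -0.75 and -0.65, and Orc6, a subunit of the origin recognition complex, by -0.59. Orc1, the large subunit of that complex, was sparse: it reached 10 TPM in 9 cells of GMP (19.6%, 9.36 to 33.9) but 3 of CD11b+ GMP-P (6.67%, 1.40 to 18.3), with a difference of -0.94, or -2.28 as a log2 ratio of mean TPM. Gmnn encodes geminin, which binds Cdt1 and blocks a further round of licensing once S phase has begun. It ranged from 0 to 8.94 in GMP (median 6.28) and from 0 to 10.08 in CD11b+ GMP-P (median 5.24), reached 10 TPM in 29 and 31 cells, and its means of 4.80 ± 3.54 and 5.18 ± 3.56 differed by +0.37, or +1.42 relative to the commonly detected genes. Geminin was higher by 2.20 in the shared range. The loading factors, the ring and its inhibitor therefore had differences from -2.80 to +0.37 within a single pathway step.

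The promoters of 5 of the ring genes are printed with those of Rrm2 and Pcna, which were not lower in CD11b+ GMP-P, which lets ring genes with the lowest differences, a ring gene that was nearly level (Mcm7) and genes that were not lower be read side by side. Each sequence holds the 250 bases before the transcription start on the strand of the gene, from RefSeq promoters of build GRCm38.p6 (the expression table itself was made on mm9). Capitals mark matches to the E2F core letters TTCCCGC or TTGGCGC or their reverse complements.
Mcm6, chr1:128359706-128359955, minus strand: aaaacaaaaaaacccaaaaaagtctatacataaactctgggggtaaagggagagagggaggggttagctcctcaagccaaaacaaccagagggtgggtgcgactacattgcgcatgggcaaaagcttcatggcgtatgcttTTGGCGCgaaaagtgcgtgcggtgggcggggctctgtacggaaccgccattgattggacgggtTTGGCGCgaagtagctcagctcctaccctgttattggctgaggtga
Mcm5, chr8:75109259-75109508, plus strand: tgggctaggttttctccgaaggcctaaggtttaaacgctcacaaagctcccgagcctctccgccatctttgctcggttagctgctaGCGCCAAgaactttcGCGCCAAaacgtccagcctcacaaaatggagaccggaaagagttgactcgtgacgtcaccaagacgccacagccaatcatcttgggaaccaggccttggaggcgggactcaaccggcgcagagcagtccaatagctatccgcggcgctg
Mcm7, chr5:138171884-138172133, minus strand: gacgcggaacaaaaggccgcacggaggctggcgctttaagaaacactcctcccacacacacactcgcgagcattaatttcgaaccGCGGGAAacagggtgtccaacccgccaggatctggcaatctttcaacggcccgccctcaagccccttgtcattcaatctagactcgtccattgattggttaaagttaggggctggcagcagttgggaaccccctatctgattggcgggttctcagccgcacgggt
Mcm3, chr1:20820313-20820562, minus strand: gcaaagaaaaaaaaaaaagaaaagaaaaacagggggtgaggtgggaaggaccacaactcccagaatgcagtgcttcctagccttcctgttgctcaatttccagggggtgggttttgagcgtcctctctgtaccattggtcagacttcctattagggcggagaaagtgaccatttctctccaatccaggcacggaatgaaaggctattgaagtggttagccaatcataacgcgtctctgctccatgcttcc
Mcm2, chr6:88898781-88899030, minus strand: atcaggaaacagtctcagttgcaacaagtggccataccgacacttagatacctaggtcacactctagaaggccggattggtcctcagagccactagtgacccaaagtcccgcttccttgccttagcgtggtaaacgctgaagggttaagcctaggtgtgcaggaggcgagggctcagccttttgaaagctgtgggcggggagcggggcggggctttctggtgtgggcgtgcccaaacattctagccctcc
Rrm2, chr12:24708004-24708253, plus strand: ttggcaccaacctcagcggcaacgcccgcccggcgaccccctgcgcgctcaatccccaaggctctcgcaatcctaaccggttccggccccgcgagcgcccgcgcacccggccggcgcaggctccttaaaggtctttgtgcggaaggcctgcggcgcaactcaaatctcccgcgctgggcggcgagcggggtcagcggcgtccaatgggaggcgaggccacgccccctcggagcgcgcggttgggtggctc
Pcna, chr2:132253181-132253430, minus strand: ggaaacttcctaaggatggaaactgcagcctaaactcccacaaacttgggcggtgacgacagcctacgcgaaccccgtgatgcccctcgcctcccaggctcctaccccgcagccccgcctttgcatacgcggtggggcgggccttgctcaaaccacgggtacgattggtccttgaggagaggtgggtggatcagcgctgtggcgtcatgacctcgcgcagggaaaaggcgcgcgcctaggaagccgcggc

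The Mcm6 stretch holds 2 matches and the Mcm5 stretch 2, the Mcm7 stretch holds 1, and those of Mcm2, Mcm3, Rrm2 and Pcna hold none of these letters. Mcm7 has another promoter in the table, at chr5:138171267-138171516, with 1 match to the core letters. Over the table's windows of 300 bases, which add the 50 bases after the start, the longer motif TTTCCCGC or TTTGGCGC on either strand was found for 12 of 37 replication genes with a promoter (32.4%, 18 to 49.8) and for 1.8% of all 27025 genes in the table. The core letters, which every longer match contains, were found for 22 of 37 (59.5%, 42.1 to 75.2) and 7.79% of all genes. Of the printed genes without a match before the start, Mcm3 had 3 core matches in its 300-base window, all after the start. Mcm2, Rrm2 and Pcna had none there either. The 22 genes with the core had a median expression difference of -0.70 between the populations, and the 15 without it -1.06, with ranges from -2.80 to +0.80 and from -2.46 to +0.84. A match in these letters is not a binding site, and 7 of the 44 genes had no promoter in the table.

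Of the 5 helicase activation genes, 2 (40%), both GINS subunits, were lower by 1 or more in CD11b+ GMP-P, against 29.9% of all genes. Of the 4 commonly detected ones, 2 (50%) were lower, near the 51.8% of all such genes. Gins1 had a median of 3.86 in GMP (0 to 8.95) and of 0 in CD11b+ GMP-P (0 to 9.70), and its means of 3.63 ± 3.45 and 1.22 ± 2.64 gave a difference of -2.41. It reached 10 TPM in 24 cells of GMP (52.2%, 36.9 to 67.1) but 6 of CD11b+ GMP-P (13.3%, 5.05 to 26.8), and it was lower by 1 or more in all 8 alternatives. Gins2 differed by -1.77 and reached 10 TPM in 23 and 12 cells. By contrast, Gins3, a subunit of the same 4-part complex, had a median of 0 in both (highest 8.27 and 8.17), reached 10 TPM in 10 cells of each population and differed by +0.24. Cdc45, which bridges GINS and the Mcm ring, had medians of 4.56 (0 to 8.86) and 3.68 (0 to 9.72) and means of 4.26 ± 3.46 and 3.63 ± 3.49 (-0.63), and Mcm10, which is needed for origin firing, differed by -0.73.

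The polymerase and primase genes all had negative differences, and 2 of 8 were lower by 1 or more, near the 29.9% of all genes. Their median of -0.79 was +0.26 relative to the commonly detected genes, and in the shared range it was +0.20, with Pold2 lower (-1.14) and Prim1 higher (+1.14) by 1 or more. Pold2, a small subunit of polymerase delta, had medians of 5.39 (0 to 9.34) and 0.38 (0 to 9.36), and its means of 4.66 ± 3.12 and 2.37 ± 3.24 gave a difference of -2.29. Pold1, the catalytic subunit of the same enzyme, differed by -0.35 and was above 0 in 23 GMP and 29 CD11b+ GMP-P cells. Pole, the catalytic subunit of polymerase epsilon, had the lowest GMP mean of the 44 genes, 0.95 ± 1.76, against 0.66 ± 1.39 in CD11b+ GMP-P, with a median of 0 in both and highest values of 8.16 and 6.53. Pola1, Prim1 and Prim2, of the enzyme that primes each new strand, differed by -0.91, -0.76 and -0.83, and Pole2 by -0.52.

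Pola2, the second subunit of polymerase alpha, was the only one of the 44 genes at 10 TPM or more in all 46 GMP cells. There it ranged from 3.55 to 7.70 (median 5.49) with a mean of 5.62 ± 0.99, the smallest SD of the set. In CD11b+ GMP-P it ranged from 0 to 8.45 (median 4.26) with a mean of 4.44 ± 2.28, a difference of -1.17. Its populations still overlapped over most of the GMP range. As a log2 ratio of mean TPM, the difference was +0.08. Whether reads of other transcripts that overlap the gene enter its value was not tested.

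The clamp and its loader differed from each other. Pcna, the ring that tethers polymerases to DNA, ranged from 0 to 10.35 in GMP (median 7.55) and from 0 to 11.03 in CD11b+ GMP-P (median 7.38), and its means of 6.21 ± 3.28 and 6.42 ± 3.56 differed by +0.21. It reached 10 TPM in 36 and 35 cells, and was higher by 1.84 in the shared range. Among the 5 loader genes, Rfc2 had the lowest difference, -1.63, with medians of 7.47 (0 to 10.26) and 5.65 (0 to 10.26), while Rfc3 differed by +0.30 and Rfc1 by -0.39. Rfc4 and Rfc5 differed by -1.03 and -1.06, just past the size used to call a gene. Both turned positive in the shared range, to +0.73 and +0.12, so their call did not hold there. The genes of replication protein A, the complex that coats single-stranded DNA, differed by -1.59 for Rpa1, -1.31 for Rpa2 and -0.98 for Rpa3. Rpa1 had medians of 5.87 (0 to 8.75) and 3.81 (0 to 8.54), and Rpa3 of 6.74 (0 to 8.87) and 6.03 (0 to 10.04). In the shared range Rpa1, Rpa2 and Rpa3 differed by -0.29, -0.82 and -0.45, so which of them was most level depended on the cells used.

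The 5 nucleotide supply genes had a median difference of -0.92, against -2.26 for the helicase ring. Rrm2, the small subunit of ribonucleotide reductase, which sets deoxynucleotide production in S phase, had the highest mean of all 44 genes in both populations. It ranged from 0 to 10.74 in GMP (median 8.25) and from 0 to 10.44 in CD11b+ GMP-P (median 8.72), and its means of 6.73 ± 3.37 and 7.57 ± 3.25 gave a difference of +0.84, the most positive of the set. It reached 10 TPM in 38 cells of GMP (82.6%, 68.6 to 92.2) and likewise 38 of CD11b+ GMP-P (84.4%, 70.5 to 93.5). Rrm2 was higher in all 8 alternatives, by 0.28 to 2.21. Rrm1, its large partner subunit, averaged 5.37 ± 3.22 and 4.45 ± 3.39 (-0.92). Set against the commonly detected genes it stood at +0.13, and its shared-range difference was +0.21.

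Tyms, thymidylate synthase, was almost level, at 4.79 ± 2.10 and 4.82 ± 2.40, with medians of 5.22 (0.51 to 8.31) and 5.57 (0 to 7.87), and reached 10 TPM in 32 cells of each population. Tk1, the thymidine salvage kinase, and Dut, which removes dUTP, differed by -1.35 and -1.17. Tk1 had medians of 6.25 (0 to 9.85) and 2.25 (0 to 10.86) and reached 10 TPM in 29 and 20 cells, but the populations had mean TPM of 160.6 (GMP) and 161.04, since fewer CD11b+ GMP-P cells held it at higher levels. Of the lagging strand genes, Fen1, the flap nuclease that trims Okazaki fragments, differed by -2.03 (medians 6.54, 0 to 10.65, and 4.15, 0 to 9.97), while Lig1, the ligase that seals them, differed by +0.80 (medians 4.57, 0 to 8.31, and 4.97, 0 to 9.98). Restricted to the shared range, Fen1 differed by -0.24 and Lig1 by +1.29.

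The chromatin copying genes had the median difference nearest to 0 of all roles, -0.10. Uhrf1, which reads hemimethylated DNA behind the fork, had medians of 6.17 (0 to 9.74) and 6.63 (0 to 9.995) and a difference of -0.32, and Dnmt1, the methyltransferase it recruits, averaged 3.45 ± 2.47 and 3.58 ± 2.78, with medians of 3.59 (0 to 7.77) and 3.36 (0 to 8.24). The subunits of chromatin assembly factor 1, which deposits histones on new DNA, split. Chaf1b had medians of 2.47 (0 to 9.37) and 0 (0 to 9.22), reached 10 TPM in 22 cells of GMP (47.8%, 32.9 to 63.1) but 8 of CD11b+ GMP-P (17.8%, 8 to 32.1), and had a difference of -2.20, whereas Chaf1a reached it in 12 and 14 cells and differed by +0.41.

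**Figure D2:**
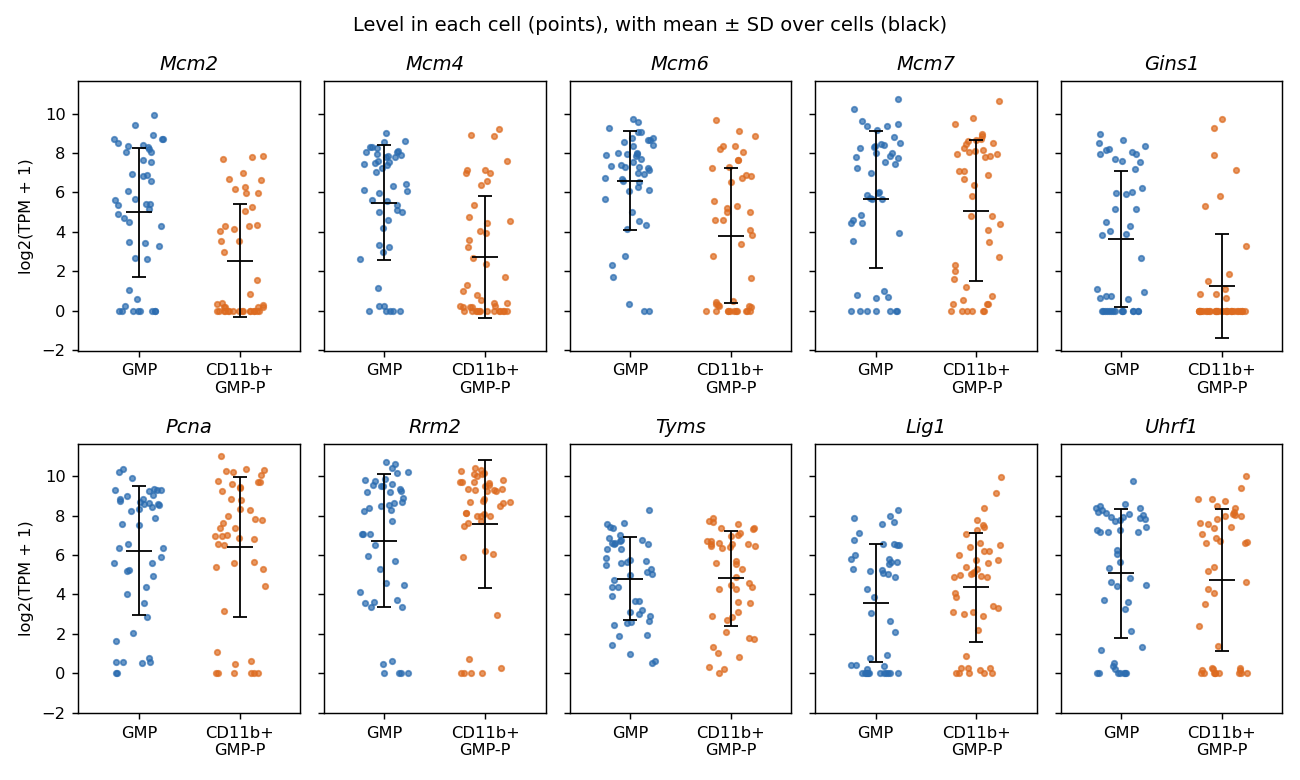
Single-cell levels of 10 replication genes (y axis, log2(TPM + 1)) with GMP in blue (46 cells) and CD11b+ GMP-P in orange (45 cells), and the mean ± SD over cells in black and sideways scatter only to separate points. Mcm2, Mcm4 and Gins1 have many CD11b+ GMP-P cells at 0, while the points of Pcna, Rrm2 and Tyms cover about the same heights in both populations.

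Counted within single cells, replication genes were fewer in CD11b+ GMP-P, and this count moved with the number of genes detected. GMP cells held from 4 to 40 of the 44 genes at 10 TPM or more, with a median of 27 and a mean of 25.5 ± 8.98. CD11b+ GMP-P cells held from 0 to 34, with a median of 21 and a mean of 19.3 ± 9.78. The count correlated with the number of genes above 0 at r = 0.64 over the 46 GMP cells and r = 0.78 over the 45 CD11b+ GMP-P cells, as a description of cells of 1 sample each. In the shared range the means were 24.4 ± 8.60 and 24.95 ± 6.84, so the direction turned. As a share of all genes at 10 TPM or more in the cell, replication genes made up 0.769% ± 0.238 in GMP and 0.802% ± 0.319 in CD11b+ GMP-P.

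The cells low in Elane held the fewest replication genes. In the 16 such CD11b+ GMP-P cells the count ranged from 0 to 21 with a median of 9.5, against 8 to 34 with a median of 26 in the 29 others, and they also had fewer genes above 0, a median of 3172.5 against 4586. The 3 GMP cells low in Elane held 4, 5 and 8. Genes differed in how many of the 16 CD11b+ GMP-P cells reached 10 TPM. Rrm2 did so in 11, Mki67, a proliferation marker, in 10, and Pcna, Rpa1 and Rpa3 in 8 each. Mcm4 did so in 1, and Gins1, Cdc6 and Chaf1b in none. Of the 29 others, Rrm2 reached it in 27, Mcm4 in 16, Cdc6 in 10, Chaf1b in 8 and Gins1 in 6. Among cells with Elane at 10 or more, the median difference of the 44 genes was -0.35. There, 12 were lower by 1 or more against 21.2% of all genes, and 3 were higher (Gmnn, Rfc3 and Rrm2) against 2.71%.

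**Figure D3:**
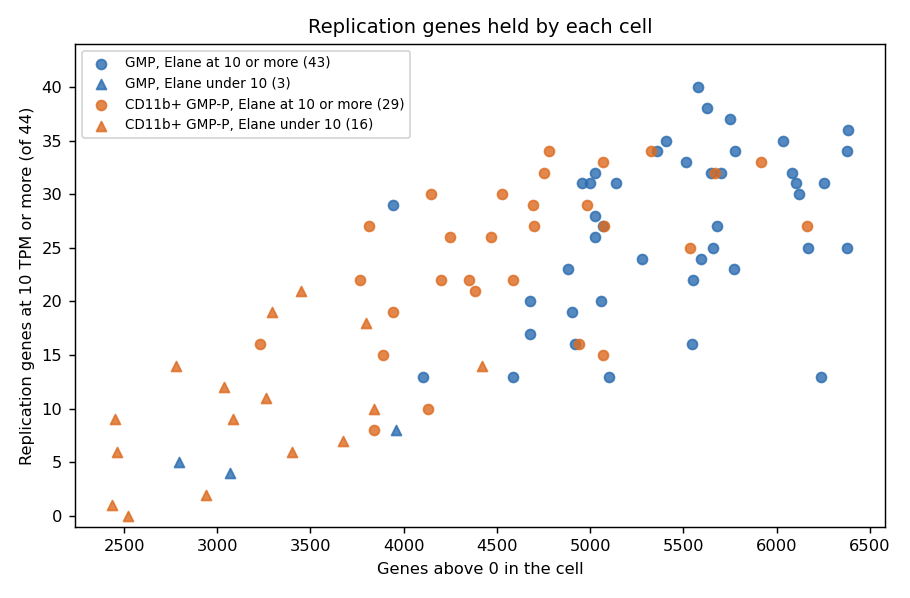
Number of the 44 replication genes at 10 TPM or more in each cell (y axis) against the number of genes above 0 in that cell (x axis), for GMP (blue) and CD11b+ GMP-P (orange), with triangles for cells whose Elane level was under 10 on the log2(TPM + 1) scale. The triangles lie at the lower left, and the circles of both populations overlap between about 13 and 34 replication genes.

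CD11b+ GMP-P cells held fewer transcripts of the helicase ring at 10 TPM. Of its 6 subunits, GMP cells held 4.59 ± 1.54 and CD11b+ GMP-P cells 3.07 ± 2.02. CD11b+ GMP-P cells also held fewer genes of any kind at 10 TPM or more, 2310 ± 763 against 3258 ± 548 in GMP. The part of that drop in the ring counts was not tested. In GMP, 29 of 46 cells held 5 or 6 subunits (63%, 47.5 to 76.8) and 5 held 2 or fewer (10.9%, 3.62 to 23.6). In CD11b+ GMP-P, 12 of 45 cells held 5 or 6 (26.7%, 14.6 to 41.9) and 19 held 2 or fewer (42.2%, 27.7 to 57.8). All 6 were found in 15 GMP (32.6%) and 9 CD11b+ GMP-P cells (20%). The direction turned in the shared range, with 8 of 26 (30.8%) and 7 of 21 (33.3%), and with Elane at 10 or more all 6 were found in 15 of 43 (34.9%) and 9 of 29. In the shared range the mean numbers of subunits were 4.73 ± 1.28 and 3.95 ± 1.88, and among cells with Elane at 10 or more 4.84 ± 1.25 and 4.10 ± 1.63. All genes at 10 TPM or more averaged 3120 (GMP) and 2770 (CD11b+ GMP-P) in the shared range. With Elane at 10 or more they averaged 3360 and 2735.

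Cells that held Rrm2 showed the same contrast. The 38 GMP cells with Rrm2 at 10 TPM or more held 4.92 ± 1.24 ring subunits, and the 38 such CD11b+ GMP-P cells 3.26 ± 1.94. These cells also differed in the number of all genes at 10 TPM or more, 3400 ± 382 (GMP) against 2438 ± 723 (CD11b+ GMP-P). Its part in this contrast was not tested. A gap taken within each cell, between the mean level of the 6 ring genes and that of the 5 nucleotide supply genes, was computed after the values were seen. The gap averaged +0.34 ± 1.67 (GMP) and -1.22 ± 1.78 (CD11b+ GMP-P), a difference of -1.56, and the values of the populations overlapped. The difference was -1.84 in the shared range and -1.31 among cells with Elane at 10 or more. As a difference of means, it equals the mean difference of the ring genes minus that of the supply genes. It therefore restates the gene differences given above and is not a separate result. Splitting each population by Mki67 at 10 TPM, the gap was -0.65 ± 1.52 in 21 GMP cells with it and +1.17 ± 1.30 in 25 without, and -1.68 ± 1.45 in 31 CD11b+ GMP-P cells with it and -0.19 ± 2.05 in 14 without.

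**Figure D4:**
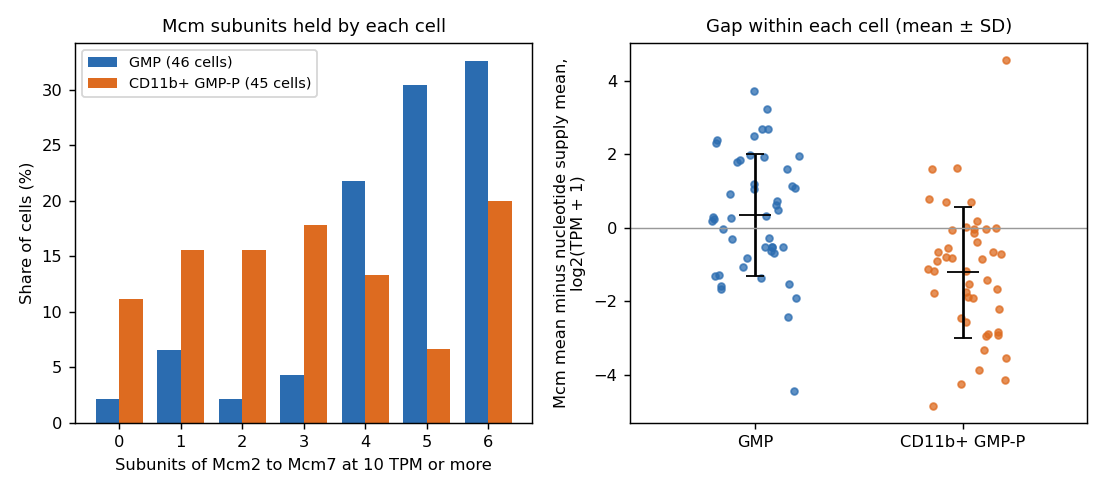
Left, share of cells in percent (y axis) by the number of Mcm2 to Mcm7 subunits at 10 TPM or more (x axis). Right, the mean level of these 6 genes minus that of the 5 nucleotide supply genes in each cell, in log2(TPM + 1), with mean ± SD in black. GMP (46 cells, blue) peaks at 5 and 6 subunits, CD11b+ GMP-P (45 cells, orange) is spread over all numbers, and its within-cell gap averages -1.22 against +0.34.

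Replication genes varied together from cell to cell within each population. Over 46 GMP cells, the 39 members above 0 in 50% or more of them had a median pair correlation of 0.28, and all 5000 genes detected that often 0.04. Over 45 CD11b+ GMP-P cells, 33 members had a median of 0.27 and all 3313 genes 0.11. With the number of genes above 0 held constant, the members' medians were 0.20 and 0.13, and those of all genes 0.0032 and 0.0049. Rrm2 followed the mean of the other members most closely in GMP (r = 0.82), before Mcm5 at 0.77 and Lig1 at 0.76, and Pola2 did so in CD11b+ GMP-P (0.74), before Dut at 0.70 and Mcm6 at 0.69. Among 3148 genes outside the set that were above 0 in 50% or more of the cells in both populations, the 5 whose levels were most like the mean of the 44, by the lower of the 2 correlations, were 2810417H13Rik (now Pclaf, a partner of Pcna; 0.60 in GMP and 0.63 in CD11b+ GMP-P), Hspd1 (a mitochondrial chaperonin), Elane, Tuba1b (a tubulin) and Sdf2l1 (a protein of the endoplasmic reticulum). With the number of genes above 0, the mean of the 44 genes correlated at 0.61 in GMP and 0.75 in CD11b+ GMP-P. The ranking of these 5 genes was not adjusted for that number. The mean of the 44 genes correlated with the mean of 20 G2 and M phase genes at 0.19 in GMP and 0.11 in CD11b+ GMP-P. Those 20 genes had a median difference of -0.05 between the populations, +0.99 relative to the commonly detected genes. Their median in the shared range was +1.20, and 11 of the 20 were higher by 1 or more there, against the 5.88% of all genes.

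**Figure D5:**
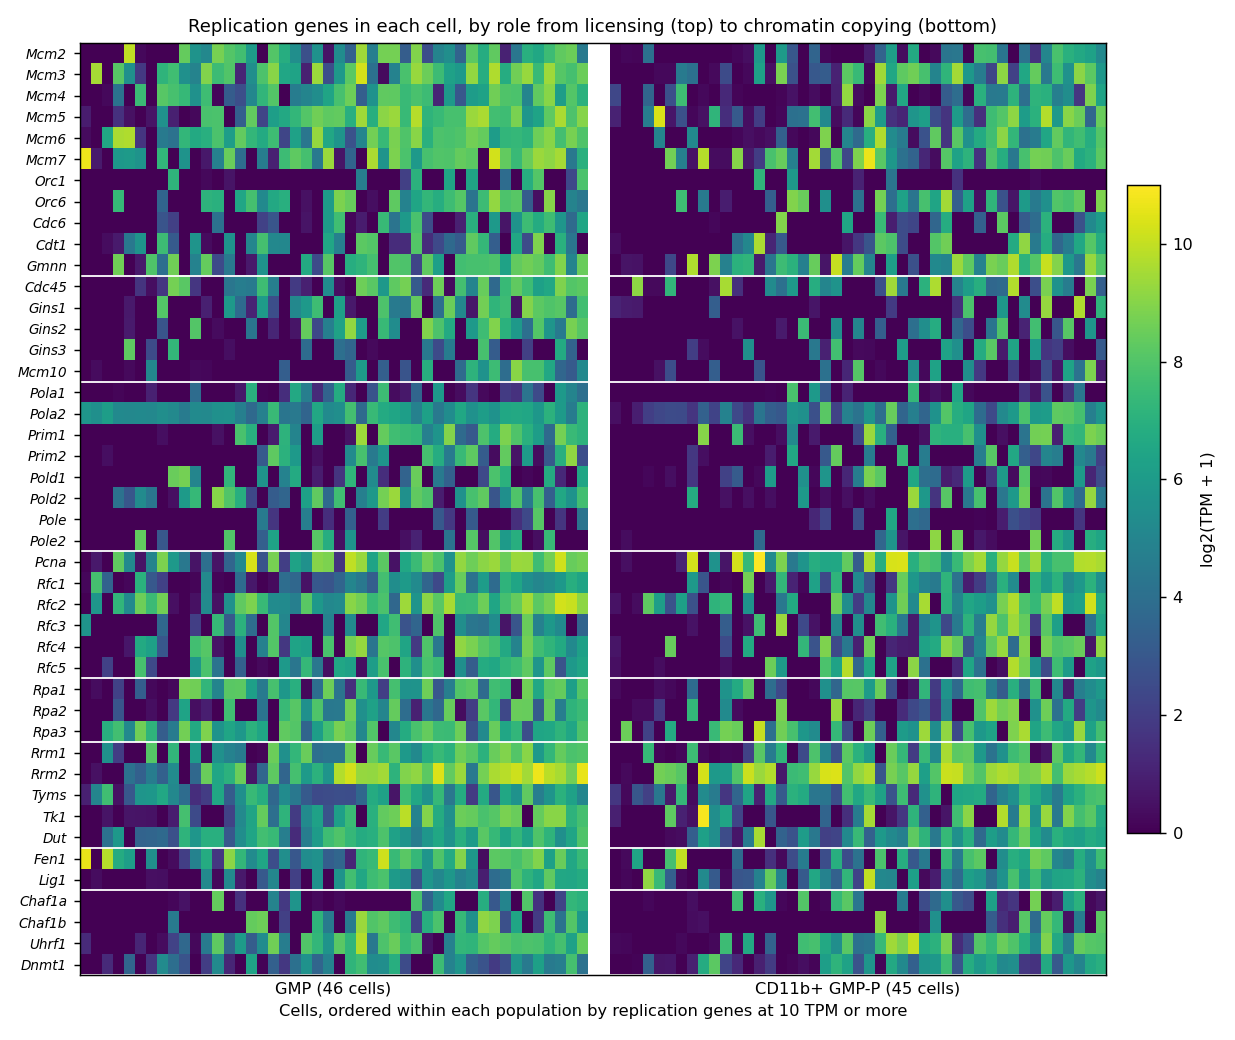
Level of the 44 replication genes (rows, white lines between roles) in each cell (columns), as log2(TPM + 1) by color, with cells ordered within each population by the number of replication genes at 10 TPM or more. Pola2 is present across all GMP cells, Rrm2 and Pcna are bright in much of both panels, and the Mcm rows are dark across the left part of the CD11b+ GMP-P panel.

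Other genes of the pathway, were listed by role and not by how they moved. Of 80 such genes, 79 were detected often enough to be counted, and 29 were lower by 1 or more and 6 higher, against the 29.9% and 2.45% of all genes given above. Of the 58 commonly detected ones 29 (50%) were lower, near the 51.8% of all such genes, and in the shared range 15 were lower and 19 higher. The enzymes that make nucleotides and the folate units they need stood lowest: 12 of 15 were lower by 1 or more, with a median of -2.19. Impdh2, which commits to guanine nucleotides, had means of 8.05 ± 2.26 and 4.42 ± 3.85 (-3.63). Shmt2, the mitochondrial serine hydroxymethyltransferase, differed by -3.56, Nme2, a nucleoside diphosphate kinase, by -3.30 and Dctpp1, a dCTP pyrophosphatase, by -3.26. This group's median in the shared range was -1.08, and 8 of the 15 were lower by 1 or more. Nme1 and Nme2 are near-identical neighbors whose reads could be divided between them, so the Nme2 value is less certain.

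Of 14 further initiation genes, 4 were lower by 1 or more (Orc2 at -1.67, Gins4 at -1.64, Orc4 at -1.24 and Orc3 at -1.21), a share near the 29.9% of all genes, and none was higher. None of the 14 was lower by 1 or more in the shared range, where these 4 differed by -0.75, -0.26, -0.37 and -0.16. Of the GINS genes only Gins1 was lower by 1 or more there (-1.69, against -0.82 for Gins2). Of 18 fork genes, 7 (38.9%) were lower by 1 or more, against the 29.9% of all genes. Of the 16 commonly detected ones, 7 (43.75%) were lower, against 51.8% of all such genes. Lowest were Rnaseh2a, a subunit of the nuclease that removes ribonucleotides from DNA (-2.81), Tipin, of the fork protection complex (-2.05), the histone chaperone subunit Ssrp1 (-1.84) and Pole3 (-1.71). The only higher one was Clspn (claspin, a checkpoint mediator) at +1.13, named after its values were seen. Within the shared range, 4 of the 18 were lower and 6 higher, and Rnaseh2a, Tipin, Ssrp1 and Pole3 differed by -2.11, -0.75, -0.87 and -0.46. Of 7 chromatin factors, 2 (28.6%) were lower by 1 or more, near the 29.9% of all genes, and 1 was higher, against 2.45%. Cdca7 (-1.18) and the histone chaperone Asf1a (-1.17) were lower, Asf1b, the proliferation-linked copy of that chaperone, was higher at +1.20, and Hells differed by -0.96. None of the 7 was lower by 1 or more in the shared range, and 2 were higher, against 16.7% and 5.88% of all genes.

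The control genes divided. Of 25 measured, 4 (16%) were lower by 1 or more and 4 were higher, with a median of +0.17. Among all genes 29.9% were lower and 2.45% higher. In the shared range 3 of the 25 were lower and 10 higher, with a median of +0.37, against 16.7% and 5.88% of all genes. Cdk4, the G1 kinase that phosphorylates the retinoblastoma protein, had means of 8.75 ± 1.62 and 4.69 ± 3.74 (-4.06). Its cyclin partners went apart, as Ccnd2 averaged 4.10 ± 3.31 and 0.93 ± 2.07 (-3.17) and Ccnd3 3.74 ± 3.05 and 6.70 ± 2.78 (+2.96). Cdkn2d, an inhibitor of the same kinase, averaged 3.11 ± 3.36 and 5.29 ± 3.67 (+2.18). Within the shared range these 4 genes differed by -2.55, -2.71, +2.84 and +1.62. The activating factors E2f1 and E2f2, named after their values were seen, were sparse in both populations, with differences of +0.36 and +0.61.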

How the data were processed

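Each of the 91 deposited columns held 1 cell. The authors deposited log2 values of TPM + 1, since each cell returned to the linear scale summed to between 999999 and 1000076. RSEM and mm9 are named in the submitters' processing notes; which aligner and gene models were used is not given in the sources used here. Per the labels' protocols, cells were captured and lysed on a Fluidigm C1 system and libraries made with SMARTer and Nextera XT kits, which use no UMIs and no strand marking, so overlapping genes cannot be separated. TPM keeps no depth; 80.3% of values were 0, and a 0 can be a missed transcript. The highest correlation between 2 cells was 0.736.

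Means, SDs and differences over cells were computed with Python 3.11.15, numpy 2.4.6 and pandas 2.3.3, and intervals with scipy 1.17.1. The main results use all 91 cells, and no doublet caller was run. Instead, 1 alternative left out the 5 cells with the most genes in each population. The calculations and the motif search were tested on simulated data. For each role the text gives the genes with the largest and smallest differences and the highest mean, with up to 4 genes with the largest differences in each further group. The members and lists were chosen with earlier results of these data known. Of 45 promoter windows of member genes, 38 ended in 30 bases found on the same strand of a GENCODE transcript.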

Additional observations from a re-analysis of the deposited data

How the results depend on the processing

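Alternatives changed the pseudocount (0.1 or 10 TPM), the summary (log2 ratio of mean TPM), the scaling (median of ratios over 1637 genes, or without the 50 highest genes), the cells used and the filter on members. The number of replication genes lower by 1 or more (main 18) was 11 with the log2 ratio, 10 with median of ratios and 5 in the shared range. The number higher (main 0) was 1 with a pseudocount of 0.1 or with the log2 ratio, 2 with median of ratios or without the 50 highest genes, 3 among cells with Elane at 10 or more, and 9 in the shared range. For the other pathway genes, the number lower (main 29) was 14 with a pseudocount of 10 and 15 in the shared range, and the number higher (main 6) was 2 with a pseudocount of 10, 11 with a pseudocount of 0.1, with the log2 ratio, with median of ratios or without the 50 highest genes, and 19 in the shared range. The difference in replication genes per cell, -6.23, reversed to +0.57 in the shared range. Median of ratios moved the median of the commonly detected genes from -1.05 to -0.60. Among 352 recomputed differences of single members, 39 changed sign, 33 of them among the 26 members that differed by less than 1. The other 6 were of members lower by 1 or more: with the log2 ratio, Pola2 to +0.079, Rfc4 to +0.039, Rfc5 to +0.40 and Tk1 to +0.0040, and in the shared range Rfc4 to +0.73 and Rfc5 to +0.12. The core E2F letters raised the share of promoters from 32.4% to 59.5%, since they include the longer motif. The shared range and the Elane limit use fewer cells and leave out many of the same CD11b+ GMP-P cells. For the other changes the cause was not tested. The mean number of ring subunits per cell and the within-cell gap, added after seeing the data, kept their direction in every alternative run on them. The share of cells with all 6 subunits did not, at 30.8% of GMP and 33.3% of CD11b+ GMP-P cells in the shared range. The difference in the gap restates the differences of its genes. No paired analysis was possible because no animal is named in the labels, and no test was made. With 1 sample per population and unknown depth, differences cannot be told apart from those between sorts or captures.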
